A study of Mus musculus with 5 samples.

Results

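The posterior Hox genes of the HoxA and HoxD clusters were described by the estrogen receptor α (ERα) binding sites called around them in the mouse uterus. They are 9 genes: Hoxa9, Hoxa10, Hoxa11 and Hoxa13 in HoxA, and Hoxd9, Hoxd10, Hoxd11, Hoxd12 and Hoxd13 in HoxD. Sites were taken by position, as the ERα peaks that overlap a fixed window around each of the 4 Hox clusters, made of the cluster and about 100 kb on each side. This gave 4 of the 5184 peaks of the vehicle library and 16 of the 17240 peaks of the estradiol library. The HoxA and HoxD windows held 2 vehicle and 8 estradiol peaks of these, and the HoxB and HoxC windows held the same numbers.

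The study mapped protein binding in the uterus of wild-type C57BL/6J mice with ChIP-seq, in which DNA bound by a protein is pulled down with an antibody and sequenced. Both groups used here came from mice whose ovaries had been removed 10 to 14 days before a single intraperitoneal injection. The vehicle group received saline, the estradiol group received 250 ng of estradiol per mouse, and uteri of both were collected 1 hour after the injection. The same ERα antibody was used for both, each group is 1 library, and the labels do not say how many animals went into it. The tissue was the whole uterus, so peaks cannot be given to epithelium, stroma or muscle, and peak lists hold no expression by which the tissue could be checked. Only the presence, position and length of each peak are known. The read depth of the libraries is unknown, and no difference between them has a replicate check or a p-value.

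Hox genes encode homeodomain transcription factors that lie in 4 clusters in mammals, and their order along a cluster follows the part of the body axis in which they act. The posterior members are related to Drosophila Abdominal-B and act in the hind body, the limbs and the urogenital tract. In the female reproductive tract Hoxa9, Hoxa10, Hoxa11 and Hoxa13 are known for patterning the oviduct, the uterus, the lower uterus with the cervix, and the vagina in that order. Hoxa10 and Hoxa11 are also needed in the adult uterus for implantation. The posterior HoxD genes are best known for limb, digit and genital development. ERα, the main estradiol receptor of the uterus, binds DNA as a dimer at estrogen response elements, in which the arm GGTCA and its reverse complement TGACC are set 3 bases apart.

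Promoter sequences of the 9 genes were taken from RefSeq (build GRCm38.p6), which holds 11 promoters for them, each running from 250 bases before the gene start to 50 bases after it. The peaks are on build mm9. Positions were not moved between the builds, so a promoter could not be set against a peak, and the sequences below describe the genes and not the bound sites. Stretches are shown for those of the 9 genes that carry an arm of the estrogen response element upstream of the start, because these letters bear on the receptor studied. They are written 5′ to 3′ along the strand of the gene, with each arm in capitals. Hoxa9 is chr6:52227588-52227620 and Hoxa11 chr6:52245843-52245894, both on the minus strand. Hoxd10 is chr2:74691802-74691846, Hoxd12 chr2:74674952-74674996 and Hoxd13 chr2:74668042-74668086, all on the plus strand.
Hoxa9: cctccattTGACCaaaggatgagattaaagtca
Hoxa11: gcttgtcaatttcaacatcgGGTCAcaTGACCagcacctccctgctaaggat
Hoxd10: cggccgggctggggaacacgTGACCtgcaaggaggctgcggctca
Hoxd12: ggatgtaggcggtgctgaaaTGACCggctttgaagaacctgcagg
Hoxd13: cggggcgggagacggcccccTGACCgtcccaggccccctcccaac

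None of the 11 promoters held the whole element, that is both arms with 3 free bases between them on either strand, and none held it with 1 mismatch in the letters of the arms. Over all 32851 promoters of the RefSeq table used, which does not hold every gene, a share of 0.070% held the element and 0.877% held it with at most 1 mismatch, so its absence from 11 promoters is the common case. An arm (GGTCA or TGACC) was found in 5 of the 11 promoters, those of Hoxa9, Hoxa11, Hoxd10, Hoxd12 and Hoxd13, beside 40.5% of all promoters. Arms alone are short and common, and their number here is near that share. The promoter of Hoxa11 differs from the other 4 in holding both arms in the orientation of the element, but 2 bases apart in place of 3. That arrangement was looked for after the letters of Hoxa11 had been seen, and 0.0974% of all promoters hold it. It begins 64 bases before the start of Hoxa11.

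Hoxa10, the member best known for uterine receptivity, had no arm in either of its 2 promoters. The 250 bases before its upstream start are shown because the absence concerns the whole stretch (chr6:52240855-52241104, GRCm38.p6, minus strand), with the box GGGCGG, the core of SP1 sites, in capitals.
Hoxa10: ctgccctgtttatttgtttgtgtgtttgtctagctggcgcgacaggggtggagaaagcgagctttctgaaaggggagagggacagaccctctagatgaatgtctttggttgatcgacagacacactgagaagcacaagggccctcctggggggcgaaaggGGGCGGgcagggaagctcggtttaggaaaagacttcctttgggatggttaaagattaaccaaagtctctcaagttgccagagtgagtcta

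Boxes of SP1, a factor to which ERα can be tethered without binding DNA itself, were found in 6 of the 11 promoters (GGGCGG or its reverse CCGCCC), beside 35.7% of all promoters. The site of AP-1 (TGANTCA), the Fos and Jun dimer that can tether ERα in the same way, was found in 1 of them, beside 7.81% of all promoters. The AP-1 count is near that share, and 11 promoters are too few to set the SP1 count apart from its own. Neither was tested. The AP-1 site was in the upstream promoter of Hoxd11, a gene of limb and kidney development. The stretch is shown with the site in capitals (chr2:74679518-74679557, GRCm38.p6, plus strand).
Hoxd11: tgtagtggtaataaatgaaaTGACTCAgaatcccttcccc

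The first comparison was of the number of ERα peaks in the 4 clusters. The vehicle library had 1 peak in each window, whereas the estradiol library had 6 in HoxD, 2 in HoxA, 7 in HoxC and 1 in HoxB. Per 100 kb of window, estradiol peaks numbered 1.97 in HoxD, 0.635 in HoxA, 2.19 in HoxC and 0.267 in HoxB. The exact Poisson 95% intervals of the estradiol numbers were 2.20 to 13.1 for HoxD, 0.242 to 7.22 for HoxA, 2.81 to 14.4 for HoxC and 0.0253 to 5.57 for HoxB. Each of these intervals meets the 3 others, but such overlap does not decide whether 2 clusters differ, and this was not tested. The intervals are of the numbers and not of the rates per 100 kb, and neighbouring peaks are not independent. The order of the clusters depends on the windows. With another 100 kb on each side, the estradiol numbers were 8 in HoxD, 11 in HoxA, 8 in HoxC and 1 in HoxB. This puts HoxA highest, by 9 added peaks that lie 47.5 to 97.0 kb beyond its window on the side of Hoxa13. The widened windows were not set beside stretches of their own length. In the windows before widening, HoxA, HoxC and HoxD had more estradiol than vehicle peaks and HoxB had equal numbers. Of the 20 peaks in the 4 windows, 20.0% were from the vehicle library (exact binomial 95% interval 5.73 to 43.7), beside 23.1% of both whole lists, so the shift in number towards estradiol was near that of the lists as a whole.

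The windows were set beside all stretches of the same length, laid end to end over the span of each chromosome that carries peaks. Of 8353 stretches of the length of the HoxD window (305 kb), 11.5% held at least 6 estradiol peaks. At least 7 estradiol peaks were found in 9.84% of 7959 stretches of the length of the HoxC window (320 kb). The HoxA count of 2 was reached by 37.0% of 8087 stretches (315 kb) and the HoxB count of 1 by 56.7% of 6790 (375 kb). More estradiol than vehicle peaks were found in 44.6% of the stretches of the length of HoxD, 45.6% for HoxA, 45.3% for HoxC and 48.5% for HoxB. All these shares count stretches without any estradiol peak, which cannot have more of them than vehicle peaks. Such stretches made up 48.0% for HoxD, 46.8% for HoxA, 46.7% for HoxC and 43.3% for HoxB, whereas each Hox window held an estradiol peak. Among the stretches that held 1 vehicle peak, as each Hox window does, 16.5% of 1392 reached the HoxD count, 65.8% of 1374 the HoxA count, 12.7% of 1372 the HoxC count and 93.7% of 1234 the HoxB count. These shares describe how common such counts were, and they are not tests.

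**Figure D1:**
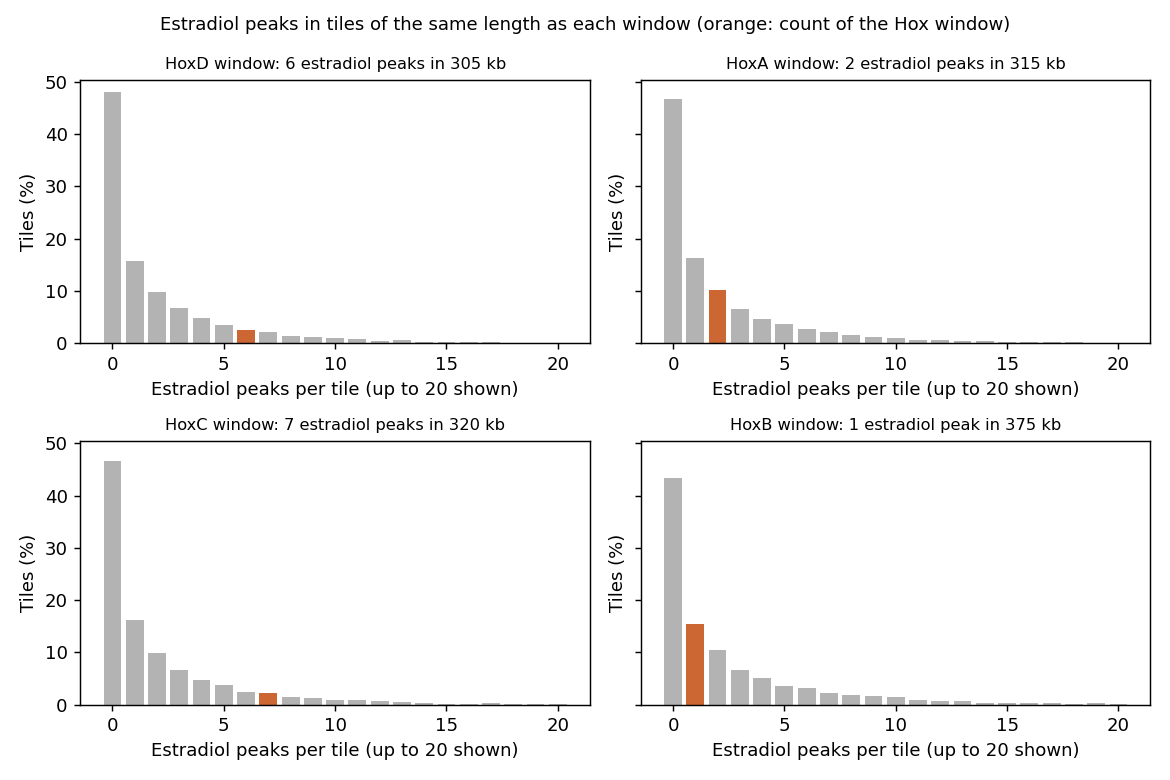
Share of all stretches of the genome (vertical axis, percent) by the number of estradiol ERα peaks they held (horizontal axis), for stretches as long as each Hox window, with the bar of the Hox window's own number in orange. HoxD (6 peaks) and HoxC (7 peaks) lie in the upper tail, reached by 11.5% and 9.84% of stretches, whereas HoxA (2) and HoxB (1) lie among the common values. Windows widened by 100 kb on each side, not plotted, hold 11 in HoxA and 8 in HoxD and HoxC. The peaks added to HoxA lie 47.5 to 97.0 kb beyond its window.

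The second comparison was of where the peaks lay within the windows. Taking 100 kb from each side of a window leaves the cluster itself, called the core here, of 105 kb in HoxD, 115 kb in HoxA, 120 kb in HoxC and 175 kb in HoxB. The flanks are given only as about 100 kb, so the edges of the cores are approximate. With 100 kb taken the 4 cores held 10 estradiol peaks, with 80 kb 11 and with 120 kb 9. The HoxD peak nearest to the posterior edge, 12.7 kb from it, is outside the core when 120 kb is taken. The HoxC estradiol peak just past the anterior edge, at 101% of the core, is inside it when 80 kb is taken. All 6 estradiol peaks of HoxD and its vehicle peak lay in the core. HoxA had 1 estradiol peak and its vehicle peak in the core, HoxB had both of its peaks there, and HoxC had 2 of 7 estradiol peaks and its vehicle peak there. In the HoxD core this comes to 5.71 estradiol peaks per 100 kb, against 1.67 in HoxC, 0.870 in HoxA and 0.571 in HoxB. Of 24282 stretches of the length of the HoxD core, 2.30% held at least 6 estradiol peaks. The corresponding shares were 17.5% for the HoxC core with 2 peaks, 32.0% for the HoxA core with 1 and 40.4% for the HoxB core with 1. Like the shares for the windows, these count stretches without peaks and are not tests, and HoxD is the highest of the 4 cores. For the cores, no share was computed among stretches with 1 vehicle peak or for the setting with 120 kb taken.

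The gene order in RefSeq, read on GRCm38 and taken to hold on mm9, gives the side of each window on which the posterior genes lie. It is the side of low coordinates in HoxD, which runs from Hoxd13 to Hoxd1, and the side of high coordinates in HoxA, where Hoxa13 lies. Measured from the posterior edge of the core, the 6 HoxD estradiol peaks lay between 12.7 and 39.0 kb, or 12.1% to 37.1% of the core, and the vehicle peak lay at 39.1 kb, or 37.2%. The HoxA core peaks lay at 39.2 kb (estradiol, 34.1% of the core) and 42.1 kb (vehicle, 36.6%). The core peak farthest from the posterior edge was thus at 37.2% of the core in HoxD and at 36.6% in HoxA. In HoxC the core peaks lay at 38.0% and 65.5% of the core, and in HoxB at 64.7% and 71.8%. The first HoxC value is close to those of HoxD and HoxA, and the edges of the cores are approximate. These few positions therefore do not clearly set HoxA and HoxD apart from HoxC. A peak was not given to a single gene, because this needs gene positions on mm9, which were not used here.

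**Figure D2:**
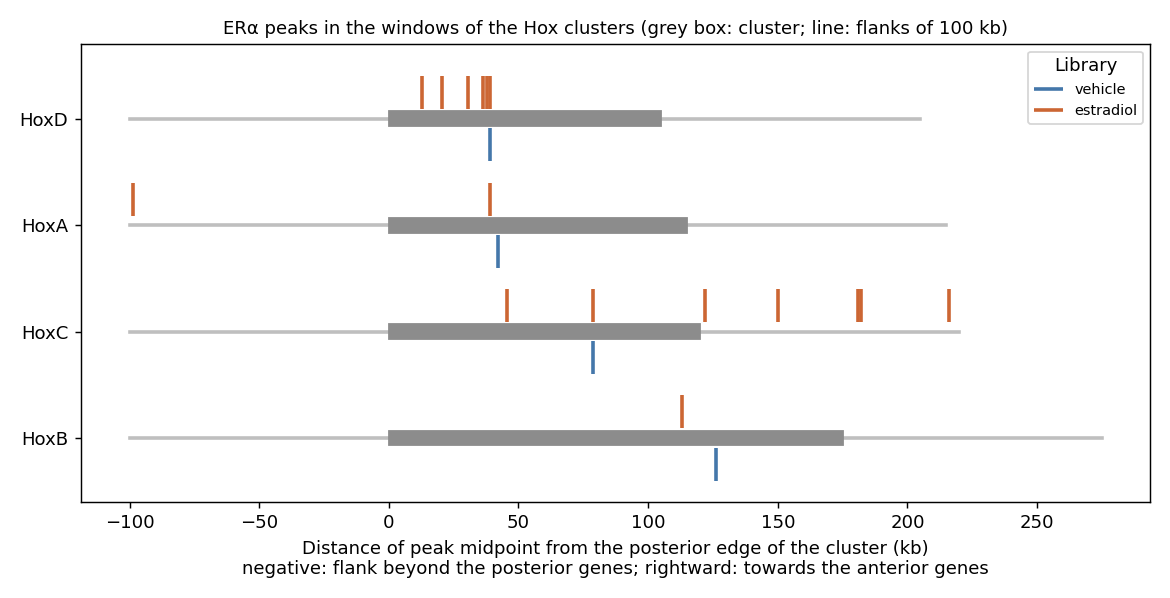
Midpoint of each ERα peak along the 4 Hox windows (horizontal axis, kb from the posterior edge of the core), with estradiol peaks above each line in orange and vehicle peaks below it in blue, the core as a grey box and the flanks as a line. The 6 HoxD estradiol peaks sit between 12.7 and 39.0 kb, and 5 of the 7 HoxC estradiol peaks sit in the anterior flank. The nearest of these 5 is at 101% of the core, just past its approximate edge.

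In HoxD, the cluster that holds Hoxd9 to Hoxd13, the estradiol peaks formed a single run on chromosome 2 (mm9, as are all peak positions). The first peak was 347 bp long, from 74517491 to 74517837, and the longest of the 16 in the Hox windows. It was followed after 7.76 kb by a peak of 264 bp from 74525602 to 74525865, and after another 9.36 kb by a peak of 337 bp from 74535225 to 74535561. The remaining peaks lay close together. A peak of 265 bp ran from 74541319 to 74541583, 5.76 kb after the one before it. The next, 1.25 kb further on, was 212 bp long, from 74542830 to 74543041. The last was 238 bp long, from 74543843 to 74544080, after a gap of 0.801 kb. The 3 peaks nearest to the posterior edge were thus set farther apart than the 3 others.

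The only HoxD vehicle peak was 139 bp long, from 74544028 to 74544166, and it overlapped the last of these estradiol peaks. The pair shared 53 bp, which is 38.1% of the vehicle peak and 22.3% of the estradiol peak, and the estradiol peak was 1.71 times as long. Over the whole vehicle list the median overlapped peak was covered over 100% of its length, and 0.676% of the overlapped vehicle peaks were covered over a smaller share than this one. The 5 other HoxD estradiol peaks had no vehicle peak, and the nearest one was this same peak, between 0.986 and 26.2 kb away.

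Runs of at least 5 estradiol peaks with gaps under 12.5 kb numbered 363 in the whole list and held 14.6% of its peaks. The HoxD run, of 26.6 kb from 74517491 to 74544080, was the only such run in the 4 Hox windows. In size it was ordinary among runs, since 61.7% of them held at least 6 peaks. Of the 78 runs with 6 peaks, 60 were shorter, and their median span was 18.4 kb. Its single vehicle peak was also common, with 61.4% of runs holding at most 1.

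In HoxA, the cluster that holds Hoxa9 to Hoxa13, a core peak was called in each library and they did not overlap. The vehicle peak was 158 bp long, on chromosome 6 from 52177777 to 52177934. The estradiol peak was 282 bp long, from 52180622 to 52180903, and lay 2.69 kb from the vehicle peak on the side of the posterior edge. A vehicle peak without an estradiol overlap had its nearest estradiol peak at a median of 21.5 kb over the list, and 18.1% of such peaks had one within 3 kb. No other peak of either library lay in the HoxA core or in the flank on the anterior side. Within the same library, the nearest other peak was 138 kb away for the estradiol peak and 231 kb away for the vehicle peak. Over the whole lists these distances had medians of 9.06 and 47.1 kb.

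The second HoxA estradiol peak was 176 bp long, from 52318601 to 52318776, in the flank on the side of Hoxa13, where Evx1 and Hibadh follow in the RefSeq order. It lay 1.22 kb inside the window and 90.5 kb from the nearest vehicle peak, so it belongs to the window by a small margin. Just outside on this side, 9 further estradiol peaks of 135 to 938 bp lay 47.5 to 97.0 kb beyond the window, with 1 vehicle peak of 304 bp at 89.3 kb. On the anterior side, where Skap2 lies, the nearest peaks of both libraries lay 173 kb outside the window.

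The HoxD window was bounded differently. Neither library had a peak in its flanks. On the side of Hoxd13 and Evx2, the nearest peaks lay 115 kb outside the window in both libraries. On the side of Hoxd1 and Mtx2, an estradiol peak of 211 bp lay 4.81 kb outside the window and a vehicle peak of 207 bp lay 35.6 kb outside. A shift of that edge by 5 kb would thus have added 1 estradiol peak to HoxD, while the core of the cluster would have been as it is.

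HoxC and HoxB were read for comparison. The HoxC vehicle peak (163 bp, chromosome 15 from 102828514 to 102828676) overlapped an estradiol peak of 131 bp from 102828523 to 102828653, which lay wholly inside it and was 0.804 times as long. The 3 longest HoxC estradiol peaks were 325 bp (102931286 to 102931610), 288 bp (102931907 to 102932194) and 250 bp (102965850 to 102966099). All 3 lay in the flank on the side of Hoxc4, where Smug1 and Cbx5 follow in the RefSeq order. In HoxB a vehicle peak of 154 bp (chromosome 11 from 96180635 to 96180788) and an estradiol peak of 178 bp (96168155 to 96168332) lay 12.3 kb apart. HoxB and HoxA thus each had a vehicle peak without an estradiol overlap, and HoxC and HoxD each had 1 with an overlap.

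Beyond the edges of those 2 windows, the nearest HoxC estradiol peaks lay 97.1 kb outside on the side of Hoxc13 and 161 kb outside on the side of Hoxc4, where the last peak within the window lay 3.90 kb from its edge. For HoxB the nearest estradiol peaks lay 269 kb outside on the side of Hoxb13 and 359 kb outside on the side of Hoxb1. The nearest vehicle peaks of HoxC lay 76.7 kb outside on the side of Hoxc13 and 62.7 kb outside on the side of Hoxc4. Those of HoxB lay 17.7 kb outside on the side of Hoxb13 and 1430 kb outside on the side of Hoxb1.

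The third comparison was of the sites called in both libraries. Of the 4 vehicle peaks in the Hox windows, 2 overlapped an estradiol peak by at least 1 bp (50.0%, exact binomial interval 6.76 to 93.2), beside 71.3% of the whole vehicle list. Of the 16 estradiol peaks, 2 overlapped a vehicle peak (12.5%, 1.55 to 38.3), beside 21.2% of the whole estradiol list. Both intervals hold the share of their whole list. For the HoxA and HoxD windows alone the numbers were 1 of 2 vehicle peaks and 1 of 8 estradiol peaks. A share different from that of the list was not detected, and the intervals leave room for wide differences.

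Peak length was the only measure of size in the lists. The 4 vehicle peaks were short, with 139 bp in HoxD, 154 bp in HoxB, 158 bp in HoxA and 163 bp in HoxC, against a list median of 207 bp. None of the 4 was longer than that median, beside 50.0% of the list, and between 15.4% and 26.4% of vehicle peaks were shorter than they were. Estradiol peaks had a median of 264.5 bp (176 to 347 bp, n = 8 peaks) in HoxA and HoxD and of 207 bp (131 to 325 bp, n = 8 peaks) in HoxB and HoxC, against a list median of 242 bp. The ranges of these 2 sets overlapped over most of their width. In HoxA and HoxD 5 of 8 estradiol peaks were longer than the list median, and in HoxB and HoxC 3 of 8 were, beside 49.8% of the list. In HoxD the first and the third peak of the run stood highest, with 81.4% and 79.4% of estradiol peaks shorter than they were. For the HoxA core peak this share was 64.5%, and for the other HoxA estradiol peak it was 21.9%. The 6 HoxD peaks alone had a median of 264.5 bp, whereas the 2 HoxA peaks alone had a median of 229 bp, below that of the list.

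**Figure D3:**
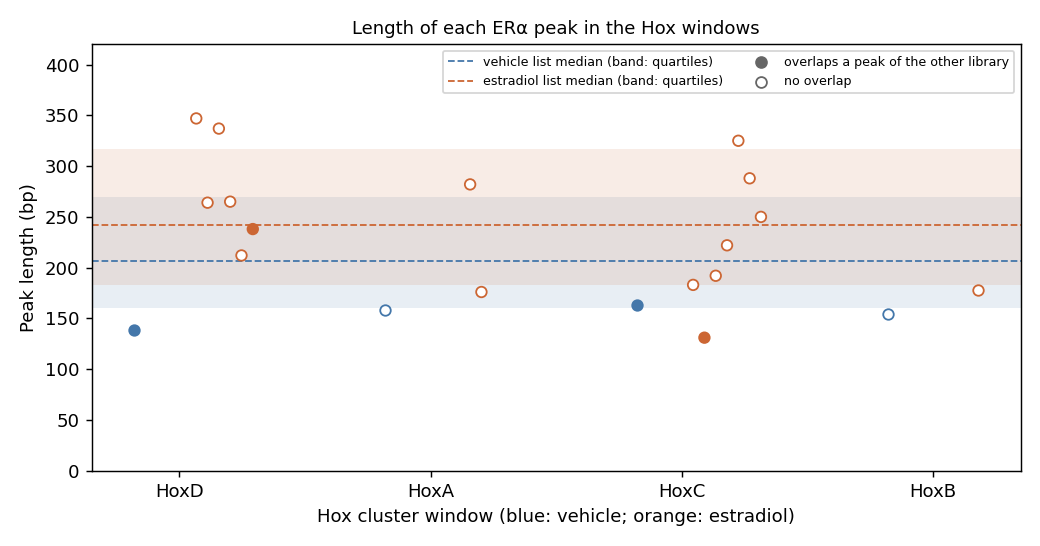
Length in bp of each vehicle (blue) and estradiol (orange) ERα peak in the 4 Hox windows, filled where it overlaps a peak of the other library, with the median (dashed line) and quartiles (band) of each whole list. The 4 vehicle peaks, of 139 to 163 bp, all lie below the vehicle median of 207 bp, and the HoxD estradiol peaks of 347 and 337 bp and the HoxC peak of 325 bp lie above the upper quartile of their list.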

How the data were processed

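ChIP-seq of ERα in mouse uterus was used from 2 of the 5 samples, 1 library per condition. The RNA polymerase II and input samples were not analysed here. The authors deposited 1 peak list per sample with chromosome, start, end and name, on mm9 per the file headers. The submitters' processing notes name Partek and mm9; for the aligner, peak caller, thresholds and use of the input, nothing is given in the sources used here. The peak lists hold no score or read count, so depth is unknown and weak sites missed at low depth cannot be seen. Per the labels' protocols, chromatin was sheared to 300 to 500 bp on average, which limits how finely a site is placed. Deposited starts were read as counting from 0, as in BED files, and 1 was added for print.

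A peak belonged to a window if it shared at least 1 bp with it, and to a core by its midpoint. The windows were HoxA chromosome 6 from 52005000 to 52320000, HoxB chromosome 11 from 95955000 to 96330000, HoxC chromosome 15 from 102650000 to 102970000 and HoxD chromosome 2 from 74405000 to 74710000. Overlaps needed 1 bp and gave equal numbers with bedtools 2.31.1 and Python 3.11.15 (numpy 2.4.6, pandas 2.3.3). Intervals are exact at the 95% level (scipy 1.17.1), leave out all error but that of counting and take peaks to be independent. The counters and the motif search were tested on simulated data. RefSeq gene order and promoters are on GRCm38.p6, and no position was moved between builds. Named were the 9 genes, every peak in HoxA and HoxD, and for HoxB and HoxC every vehicle peak and the 3 longest estradiol peaks, with the estradiol partner of a vehicle peak added. The members and lists were chosen with earlier results of these data known.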

Additional observations from a re-analysis of the deposited data

How the results depend on the processing

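Of 51 alternative values for 12 results, 23 stayed within 1.5 times the reported number and 28 did not. HoxD kept 6 estradiol peaks with neighbouring peaks joined and without flanks, and had 8 in the widened window and 4 among longer peaks. Without flanks, HoxA had 1 and HoxC 2 estradiol peaks. Windows widened by 100 kb on each side held 11 estradiol peaks in HoxA, 8 in HoxC and 1 in HoxB, and 2 vehicle peaks in each of HoxA, HoxB and HoxD and 3 in HoxC. Among peaks at or above the median length of their list there were 0 vehicle peaks in each of HoxA, HoxB, HoxC and HoxD, 1 estradiol peak in HoxA, 0 in HoxB and 3 in HoxC. When the 5184 longest estradiol peaks alone were used, 0 remained in HoxA, 0 in HoxB, 1 in HoxC and 2 in HoxD. A reduction to that number by equal chance, chosen after seeing the data, leaves 0.601, 0.301, 2.10 and 1.80 on average. An overlap of 50% of both peaks left 1 vehicle and 1 estradiol peak shared, that of HoxC, and 0 and 0 were shared among longer peaks and with the reduced estradiol list. The causes were not tested beyond the smaller lists and other windows these settings make by construction. The assignment of peaks to genes was not run, because it needs mm9 gene positions. No paired analysis was possible because each condition is 1 library, and no replicate could be left out.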

Other observations

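Among the neighbours of the clusters, Evx2, the homeobox gene next to Hoxd13, had the only promoter of the Hox and neighbour lists with a whole estrogen response element. Those lists held 30 promoters beside 5 of Hox cofactors, which had none. The element begins 39 bases before the start of Evx2, and it is one of 23 found in the 32851 promoters of the RefSeq table used, or 0.070%. The stretch is shown with both arms in capitals (chr2:74659564-74659616, GRCm38.p6, minus strand).
Evx2: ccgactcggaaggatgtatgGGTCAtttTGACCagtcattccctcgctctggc

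In the RefSeq order Evx2 follows Hoxd13 on the posterior side. Neither library had a peak in the HoxD flank on that side or in the first 12 kb of the core. The position of Evx2 on mm9 was not used here, so the element was not set against a peak.

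Among the other Hox genes, all 4 anterior HoxD promoters held an arm of the element, those of Hoxd1, Hoxd3, Hoxd4 and Hoxd8, against 1 of 5 anterior HoxA promoters, that of Hoxa5. The table holds 3 of the 10 HoxB genes and 1 of the 9 HoxC genes, and 1 promoter of each of these lists held an arm. With 40.5% of all promoters holding an arm, these counts are too small to set the clusters apart.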
